A study of Mus musculus with 2 samples.

Results

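Conventional CD4 T cells, the helper cells that carry the Cd4 co-receptor and lack the regulatory factor Foxp3, were described among immune cells of mouse liver tumours. A barcode was taken as a member when it had at least 200 genes, at most 10% mitochondrial transcripts, transcripts of at least 2 of the 6 T cell genes Cd3d, Cd3e, Cd3g, Trac, Trbc2 and Cd247, at least 1 Cd4 transcript, none of Cd8a, Cd8b1 or Foxp3, at most 1 of the myeloid gene Lyz2, and not both of the division genes Mki67 and Top2a. The rule found 149 members among 10014 kept barcodes of the anti-PD-1 library and 165 among 9566 of the isotype library. The tumours were orthotopic Hepa1-6 tumours, grown in the liver from a mouse hepatoma line, in wild-type C57/BL6 mice given an antibody against PD-1 or an isotype IgG. Live CD45-positive cells of each group were sequenced as 1 droplet library of 3′ transcript ends. The sources used here do not give the age or number of the mice, the pooling of animals or the antibody doses.

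Helper T cells recognise peptides on MHC class II through a receptor made of an alpha and a beta chain. They act on other cells through cytokines and through membrane ligands such as CD40L, and some of them carry granzymes and kill directly. PD-1, encoded by Pdcd1, is an inhibitory receptor that activated T cells put on their surface, and the antibody blocks its binding to its ligands.

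Each library is a single sample, so the data hold no replicates and no test between the antibodies was possible. Levels are unique molecular identifiers (UMIs, 1 per captured transcript) of a gene summed over the members of a library, given as counts or scaled by the members' total to CPM, the usual depth-scaled unit. Each ratio divides the anti-PD-1 CPM by the isotype CPM and is given as log2, with an exact 95% interval that, like every interval here, covers counting error only. A summed level joins the share of cells that carry a gene and the amount in each of them. Sequencing gave 72148493 UMIs for anti-PD-1 and 67520433 for isotype over all barcodes. Members summed to 1315999 and 1177308 UMIs, the median member having 7148 and 6223 UMIs from 2374 and 2103 genes. The libraries share 140 barcode sequences, and 4 members of each library carry one of them. The median ratio of 16 dissociation and stress genes was 0.00 (-0.07 under TMM scaling), and ribosomal protein genes took 22.6% of the members' UMIs under anti-PD-1 and 24% under isotype.

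The label was checked against its markers. Cd4 was part of the rule and had 548 UMIs in anti-PD-1 members and 587 in isotype members. Cd40lg, which encodes CD40L and was not part of the rule, had 110 and 163 UMIs in members, against 2 and 0 in CD8 T cells chosen by the same T cell rule. Tnfrsf4, the costimulatory receptor OX40, had 721 and 781 UMIs, and Cd3e, also in the rule, 1399 and 1219. Of the 6 gamma-delta T cell markers, Trdc, Sox13 and Blk were at 0 in both libraries, and the list summed to 1 UMI in 1 anti-PD-1 member and 12 UMIs in 4 isotype members. Of the 9 NK and NKT cell markers, Ncr1, Klra4, Klra8 and Trav11 were at 0 in both, and the list summed to 313 UMIs in 28 anti-PD-1 members and 189 UMIs in 19 isotype members, most of them from Tyrobp and Fcer1g, adaptor genes that myeloid cells also use. Of the 8 B and plasma cell markers, Ms4a1 and Ebf1 were at 0 in both, and the list summed to 43 UMIs in 25 members and 40 UMIs in 26 members. The liver genes Alb, Ttr and Apoa1 were also at 0. Both helper genes outside the rule, Cd40lg and Tnfrsf4, were thus present in members of both libraries. For Tnfrsf4 no ratio to another class is given here, and it enters only the count of label markers that follows. Foxp3 regulatory T cells were taken with any Cd4 count, so a higher Cd4 in members than in them follows in part from the rule. Against these cells, 1 of the 4 label markers was at least 1.5-fold lower in members in each library, which goes against the label. In each library 2 were at least 1.5-fold higher. Cd40lg was among the higher ones, with log2 ratios of 3.52 under anti-PD-1 and 4.51 under isotype.

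Myeloid transcripts were present in some members. The 10 monocyte and macrophage markers summed to 359 CPM in anti-PD-1 members and 459 CPM in isotype members, the 6 neutrophil markers to 1210 and 1194 CPM, and the 8 dendritic cell markers to 451 and 521 CPM. The monocyte and macrophage sum was mostly Cst3, with 336 and 493 UMIs, 203 of the isotype UMIs in 1 cell, while Cd68 had 50 and 8 UMIs, Apoe 17 and 3, and Fcgr3 36 and 16. Of the 4 markers measured, 3 were at least 1.5-fold higher under anti-PD-1 and the median log2 ratio was 1.68. Myeloid transcripts were concentrated: 11 anti-PD-1 members and 7 isotype members with at least 20 such UMIs held 81.6% and 78.2% of them, while the median member had 3 in each library. A median of 291 and 300 such UMIs was found in Lyz2-high myeloid cells. Of the genes named in the text, the value without these members is given where it differs by more than 1.5 times. Regulatory T cell markers other than Foxp3 summed to 1331 and 1397 CPM, and 15 anti-PD-1 and 9 isotype members had both Il2ra and Ikzf2.

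Near the limits of the rule, 37 anti-PD-1 and 42 isotype members had exactly 1 Cd4 UMI, and 111 and 146 T cells with none met the rest of the rule. A further 10 and 17 Cd4-bearing cells were outside for a Cd8a or Cd8b1 UMI, 38 and 33 for a Foxp3 UMI, and 35 and 29 for Mki67 with Top2a. Members made up 1.49% of kept barcodes under anti-PD-1 (95% interval 1.26 to 1.74) and 1.72% under isotype (1.47 to 2.01). Of all T cells by the T cell rule, 149 of 587 were members under anti-PD-1, or 25.4% (21.9 to 29.1), against 165 of 512 under isotype, or 32.2% (28.2 to 36.5). That difference was -6.84 percentage points (-12.2 to -1.48). For kept barcodes the difference was -0.24 points (-0.59 to 0.12), an interval that includes 0. The same T cells held 127 and 58 CD8 T cells, or 21.6% and 11.3%, and 60 and 45 Foxp3 regulatory T cells. They also held 126 and 73 cells with both Mki67 and Top2a, or 21.5% and 14.3%, which the rule keeps out of the members. A higher share of such cells lowers the share of members, and shares among the T cells without both genes were not computed.

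Receptor variable segments differed between the libraries, and the sequences of the segments concerned are shown first. The beta segment Trbv13-1 and the alpha segment Trav4-3 led together in many anti-PD-1 members, while Trbv20 and Trav7-4 formed the most frequent isotype pair. The last 120 coding bases of each segment are given 5′ to 3′ on the plus strand of GRCm38 from GENCODE vM21, and the capitals mark the codon of the last cysteine, after which the variable junction begins.
Trbv13-1 (chr6:41116349-41116468): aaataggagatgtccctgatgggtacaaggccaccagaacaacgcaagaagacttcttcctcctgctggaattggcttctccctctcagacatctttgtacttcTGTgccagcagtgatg
Trav4-3 (chr14:53599291-53599410): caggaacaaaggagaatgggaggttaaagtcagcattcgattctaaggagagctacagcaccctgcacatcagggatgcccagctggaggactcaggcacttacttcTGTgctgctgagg
Trbv20 (chr6:41188858-41188977): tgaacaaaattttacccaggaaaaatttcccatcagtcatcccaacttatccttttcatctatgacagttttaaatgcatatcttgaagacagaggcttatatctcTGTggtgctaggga
Trav7-4 (chr14:53461619-53461738): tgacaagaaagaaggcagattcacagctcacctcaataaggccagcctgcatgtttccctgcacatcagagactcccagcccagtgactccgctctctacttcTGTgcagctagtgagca
A leading segment was named only in cells with at least 2 UMIs of that segment class, and 3′ libraries do not read the junction, so cells with the same 2 segments are not shown to be 1 clone. Trav4-3 shares 98 of its last 100 coding bases with each of Trav4d-3, Trav4n-3 and Trav4-4-dv10, and Trav7-4 shares all 100 with Trav7d-4 and 99 with Trav7n-4, so counts may be split among these copies. Trbv13-1 shares 84 of 100 with Trbv13-2 and 81 with Trbv13-3. Whether these regions were read in each cell depends on where the captured fragment fell.

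The pair of Trbv13-1 with Trav4-3 led in 20 of 93 anti-PD-1 members with both segments named, or 21.5% (13.7 to 31.2), against 1 of 84 isotype members, or 1.19% (0.0301 to 6.46). Of the other pairs under anti-PD-1, Trbv20 with Trav14-2 came next with 6 cells, and 57 distinct pairs were seen in all. The isotype members had 53 distinct pairs, led by Trbv20 with Trav7-4 in 7 cells and Trbv5 with Trav7-4 in 5 cells. In the 20 cells Trbv13-1 had 9 to 54 UMIs per cell with a median of 31.5, and Trav4-3 had 3 to 33 with a median of 11.5. Trbv13-1 gave every beta segment UMI in 19 of these 20 cells and Trav4-3 every alpha segment UMI in 16. In the other 129 anti-PD-1 members, Trbv13-1 had 248 UMIs and Trav4-3 had 16.

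The pair was also seen in 10 of 86 T cells with both Mki67 and Top2a under anti-PD-1, or 11.6% (5.72 to 20.3), and in 0 of 44 under isotype, which allows a share of up to 6.82% at a floor of 3 counts and of 8.04% by the exact interval. It was found in 0 of 72 CD8 T cells under anti-PD-1, which allows up to 4.17% by the floor and 4.99% by the interval, and in 0 of 28 Foxp3 regulatory T cells, which allows up to 10.7% and 12.3%. In all, 31 anti-PD-1 T cells carried it, of which 28 had Cd4 and no Cd8a or Cd8b1 transcript, 2 had a Cd8a or Cd8b1 transcript and 0 had Foxp3. A further 3 anti-PD-1 barcodes outside the T cell rule carried it too. With the animals behind each library unknown, the pair cannot be told apart from a feature of 1 mouse.

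**Figure D1:**
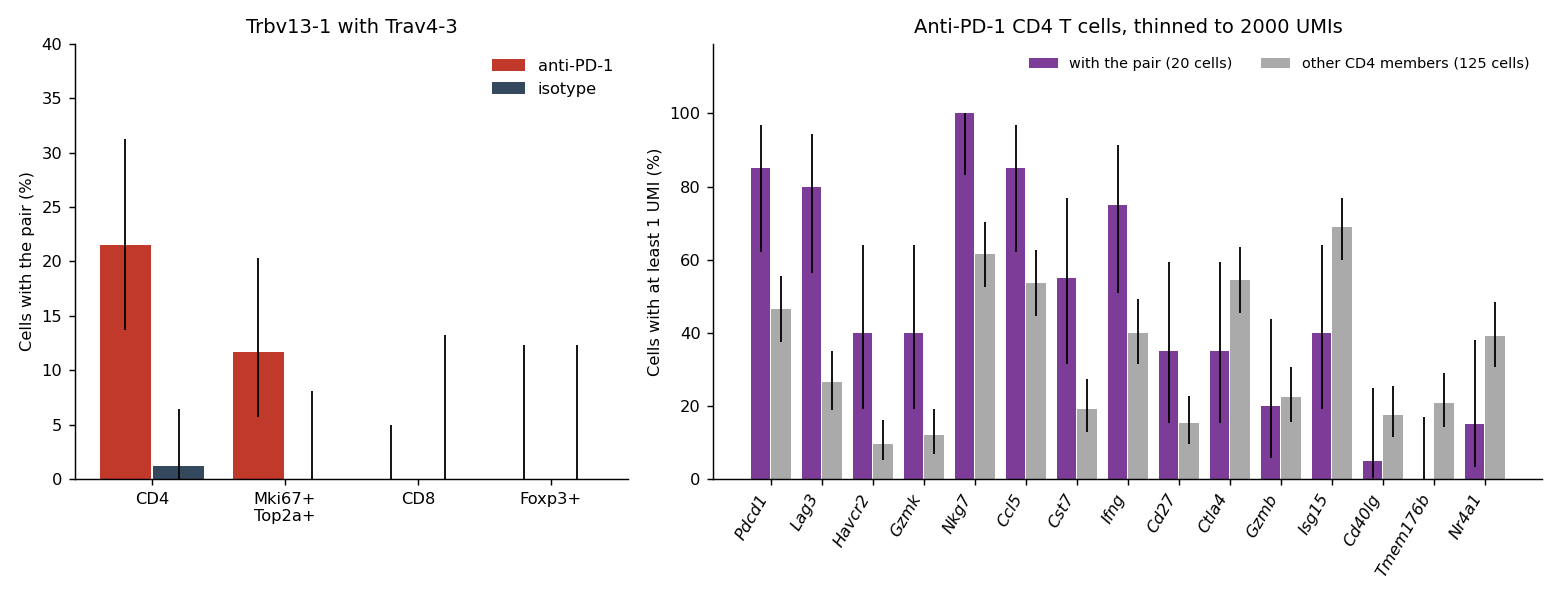
Left, the percentage of cells with both segments named that were led by Trbv13-1 and Trav4-3, in 4 T cell classes of the anti-PD-1 (red) and isotype (dark) libraries, with exact 95% intervals. Right, the percentage of anti-PD-1 CD4 members with at least 1 UMI of each gene after thinning each cell to 2000 UMIs, in the 20 cells with the pair (purple) and 125 others (grey), also with exact 95% intervals: Lag3 was found in 80.0% and 26.4%, and Isg15 in 40% and 68.8%.

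The 20 cells with the pair differed from the other anti-PD-1 members in many genes. They were deeper, with a median of 12960 UMIs against 6374 in the other members and 7421 in the 73 members with another pair. Of the 20, 1 had at least 20 myeloid marker UMIs. Against the other members, 1 of 4 measured neutrophil markers was higher and 3 were lower. Against the 73, S100a8, S100a9 and Il1b were at 1.65, 1.87 and 2.52, and Retnlg at -0.05. Granzyme K, Lag3 and Nkg7 were higher in the pair cells than in the other members, and naive and interferon-stimulated genes were lower. Of 6358 genes measured, 52.2% were higher in the pair cells, 14.5% at least 1.5-fold higher and 18.8% at least 1.5-fold lower. The cytotoxic list was mixed, with 10 of 17 measured genes higher, 8 at least 1.5-fold higher and 5 at least 1.5-fold lower. The inhibitory receptor list was mixed too, with 8 of 15 higher, 4 at least 1.5-fold higher and 5 at least 1.5-fold lower. Gzmk had 138 UMIs in the 20 cells and 132 in the other 129 cells, a log2 ratio of 1.99 (1.64 to 2.35). Lag3, an inhibitory receptor that binds MHC class II, had 220 and 290 UMIs, or 1.53 (1.27 to 1.79). Nkg7, a protein of cytotoxic granules, had 958 and 1533 UMIs, or 1.25 (1.13 to 1.37), and Cst7, an inhibitor of cathepsins, had a ratio of 1.61 (1.25 to 1.98). Set against the 73 members with another pair, Gzmk was at 1.76 (1.38 to 2.15), Lag3 at 1.38 (1.10 to 1.66) and Nkg7 at 1.17 (1.05 to 1.30).

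After each cell was thinned to 2000 UMIs, 16 of the 20 pair cells had Lag3, or 80.0%, against 33 of 125 other members, or 26.4%, a difference of 53.6 percentage points (30.4 to 67.4). Pdcd1 was found in 85.0% and 46.4%, Havcr2, which encodes TIM-3, in 40% and 9.60%, and Ifng in 75.0% and 40%. Ctla4 went the other way, with 35.0% and 54.4%, a difference whose interval of -38.3 to 4.00 points includes 0. Gzmb was found in 20% and 22.4%, although its summed level was lower in the pair cells, with a log2 ratio of -1.29 (-1.72 to -0.89). Against the 73 members with another pair, the summed level of Ifng was close, with a log2 ratio of -0.04 (-0.26 to 0.18). Both the measure, without thinning, and the comparison group differ here from those of the Ifng shares. Pdcd1 was at 0.44 (0.16 to 0.70) and Havcr2 at 1.11 (0.54 to 1.68) in that comparison.

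Genes lower in the pair cells came from several lists. In the type I interferon response list, 17 of 19 measured genes were lower and 13 at least 1.5-fold lower, and Isg15 had a log2 ratio of -1.44 (-1.72 to -1.16). The 9 naive and central memory genes measured, of 12 in the list, were lower, with Tcf7, a factor of less differentiated T cells, at 1 UMI in the pair cells and 60 in the others. The survival list had 9 of 9 genes lower. Nr4a1, an early gene of receptor signalling, had 27 and 446 UMIs, or -2.12 (-2.74 to -1.56), and the helper ligand Cd40lg 10 and 100 UMIs. The costimulation and help list as a whole was mixed, with 4 of 12 measured genes higher, 2 at least 1.5-fold higher and 3 at least 1.5-fold lower, and Cd27 at 49 and 100 UMIs, or 0.90 (0.38 to 1.41). The pair cells had 0 UMIs of Il17a, Il13, Gzma and Tmem176b, which were in 9, 7, 6 and 35 of the other 129 members. For the first 3, absence from 20 cells says little. After thinning, Il17a was in 0% and 6.40%, a difference whose interval of -12.1 to 10.0 points includes 0. Tmem176b, a membrane protein gene of the Th17 list, had 126 UMIs in the other members. Its level in the pair cells was 11-fold lower when their 0 UMIs were set to a floor of 3 counts. That is a log2 ratio of -3.46, with an interval that reaches up to -3.14. Glycolysis and hypoxia genes had 10 of 12 members higher, with a median of 0.42.

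The Trav7-4 members came mostly from the isotype library. Trav7-4 led in 1 of 102 anti-PD-1 members with an alpha segment named, or 0.980%, and in 18 of 95 isotype members, or 18.9% (11.6 to 28.3). The beta segment differed among the 18, with Trbv20 in 7 and Trbv5 in 5. Without thinning, Ifng was found in 16 of the 18, against 98 of all 150 isotype members without Il17a, which include them. Il17a was found in 0 of the 18 and in 15 of all 165 isotype members, so its absence among 18 cells says little. Gzmc was found in 7 of the 18, and its count over all isotype members is given below with the cytotoxic genes.

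Between the antibodies, inhibitory receptor, cytotoxic and interferon-gamma response genes were higher in anti-PD-1 members, and cytokine, Th17 and helper ligand genes were lower. Of 7896 genes with at least 20 UMIs over both libraries, 58.6% were higher under anti-PD-1, 11.7% at least 1.5-fold higher and 6.53% at least 1.5-fold lower, and the median log2 ratio was 0.08. The calls were thus 64.1% higher ones, a share that became 53.1% when the totals were scaled by TMM and 54.4% with DESeq2 size factors. Counts of list members below are to be read against these shares.

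**Figure D2:**
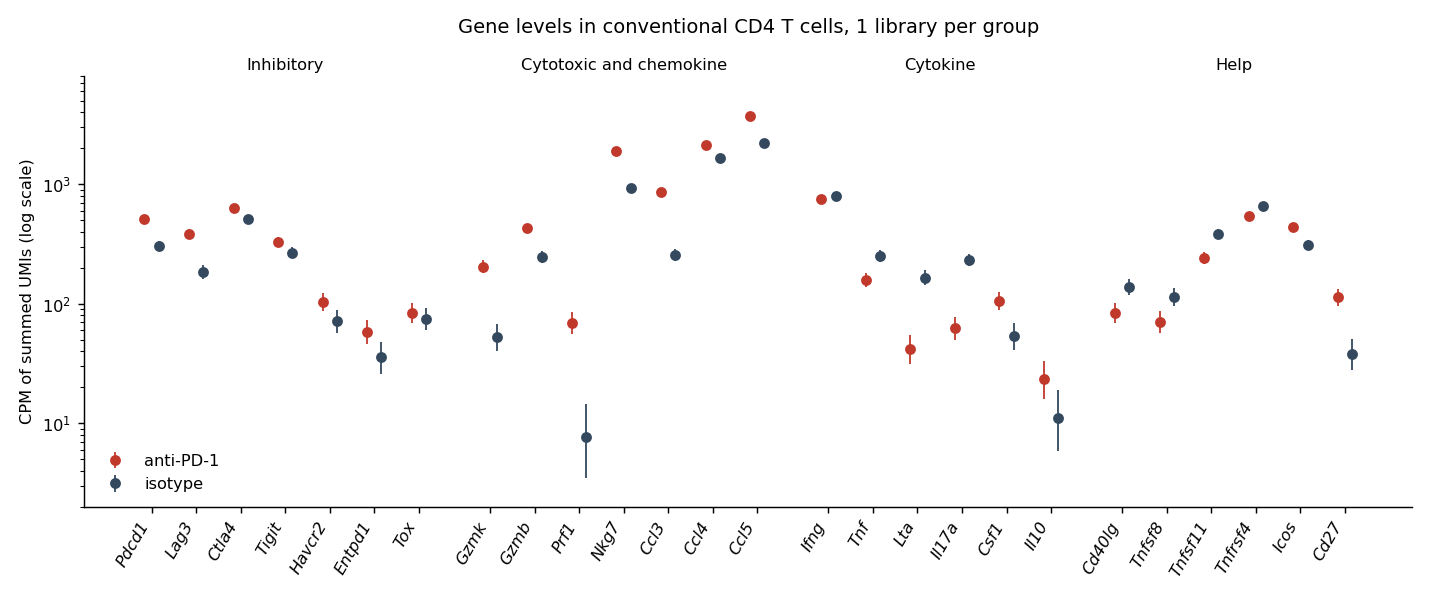
CPM of summed UMIs (log axis) in conventional CD4 T cells of the anti-PD-1 (red) and isotype (dark) libraries for 26 genes in 4 groups, with exact Poisson 95% intervals. Lag3, Gzmk and Ccl3 lie higher under anti-PD-1, Lta, Il17a and Cd40lg lie lower, and Ifng is close in both.

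Inhibitory receptors, which dampen T cell signalling, were mostly higher. Of 16 measured genes in this list, 14 were higher, 3 at least 1.5-fold higher and 0 at least 1.5-fold lower, with a median log2 ratio of 0.27. Pdcd1, the gene of the antibody's target, had 680 UMIs in anti-PD-1 members and 359 in isotype members, a ratio of 0.76 (0.57 to 0.95). Lag3 had 510 and 217 UMIs, or 1.07 (0.84 to 1.31), and Entpd1, the ectoenzyme CD39, 77 and 42, or 0.71 (0.15 to 1.29). Havcr2 had a ratio of 0.53 (0.13 to 0.94), Ctla4 of 0.32 (0.16 to 0.47) and Tigit of 0.29 (0.08 to 0.51). Tox, which encodes a nuclear factor linked to exhaustion, had 110 and 88 UMIs, or 0.16 (-0.26 to 0.58), an interval that includes 0. Without the pair cells, Lag3 stood at 0.59, Entpd1 at 0.24 and Pdcd1 at 0.66.

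Cytotoxic genes had a median of 0.74, the highest of the lists of T cell function, with 15 of 17 measured genes higher, 10 at least 1.5-fold higher and 1 at least 1.5-fold lower. The NK and NKT cell markers, of another cytotoxic cell type, were also higher in sum, at 238 CPM in anti-PD-1 members and 161 CPM in isotype members, with Tyrobp at 0.59 (0.22 to 0.97) and Fcer1g at 0.50 (0.10 to 0.91), and their part in the cytotoxic values was not tested. The cytotoxic median was 0.73 without the members that had Trdc, Zbtb16 or Ncr1 and 0.63 without the members with at least 20 myeloid marker UMIs. Gzmk, a granule protease encoded at chr13:113171608-113225908 (mm10), had 270 UMIs in anti-PD-1 members and 62 in isotype members, or 1.96 (1.56 to 2.38). It was found in 44 and 18 cells, and without the pair cells the ratio was 1.26. Gzmb, the main granzyme of killer cells, had 568 and 291 UMIs in 45 and 34 cells, or 0.80 (0.60 to 1.01). Nkg7 had 2491 and 1103 UMIs, or 1.01 (0.91 to 1.12), in 108 and 102 cells. Its level was 1893 CPM in all anti-PD-1 members, 1471 CPM in the 129 without the pair and 937 CPM in isotype members.

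Single cells weighed on several of these genes. Prf1, the pore-forming perforin, had 91 and 9 UMIs, or 3.18, but 39 of the 91 came from 1 cell, and without the pair cells the ratio was 2.05. Gzma had 91 and 30 UMIs in 6 cells and 1 cell. Gzmc, a granzyme of strongly activated cells, went the other way with 304 and 1395 UMIs in 12 and 32 cells, or -2.36, and 536 of the isotype UMIs were in 1 cell. The chemokine Ccl3 had 1142 and 303 UMIs in 48 and 24 cells, or 1.75 (1.57 to 1.94), and Ccl5 4916 and 2630 UMIs, or 0.74 (0.67 to 0.81). The 20 pair cells held 252 of the anti-PD-1 Ccl3 UMIs and 1559 of the Ccl5 UMIs. Eomes, a transcription factor of cytotoxic lymphocytes, had 49 and 25 UMIs in 21 and 7 cells, or 0.81 (0.09 to 1.57).

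Cytokine genes were mostly lower, with 3 of 14 measured genes higher, 2 at least 1.5-fold higher and 7 at least 1.5-fold lower, and a median of -0.57. Ifng, the cytokine of Th1 cells, was close in both libraries with 989 and 938 UMIs in 91 and 99 cells, or -0.08 (-0.21 to 0.05). The Th1 list as a whole had 5 of 10 genes higher and a median of -0.02, with Tbx21, its master factor, at 0.30 (-0.12 to 0.72). Tnf had 208 and 294 UMIs, or -0.66 (-0.92 to -0.40). Lta, which encodes lymphotoxin alpha next to Tnf at chr17:35203165-35205351, had 55 UMIs in 33 anti-PD-1 cells and 195 in 55 isotype cells, or -1.99 (-2.45 to -1.55). Csf1, the macrophage growth factor, was higher with 139 and 63 UMIs, or 0.98 (0.54 to 1.43), and Il10, an anti-inflammatory cytokine, had 31 and 13 UMIs in 10 and 4 cells, or 1.09 and, without the pair cells, 0.47.

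Several cytokines came from few cells. Il4 had 4 and 19 UMIs, each from 1 cell, and Il2 2 and 19 UMIs in 1 and 5 cells. Il13 had 80 and 91 UMIs in 7 and 21 cells, with 70 of the 80 in 1 cell. Csf2 had 70 and 112 UMIs in 11 and 18 cells, or -0.84, but 54 of the 112 were in 1 cell, and the sign turned with a ratio of 0.18 when members with at least 20 myeloid marker UMIs were left out.

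The Th17 list had 1 of 8 measured genes higher, 3 at least 1.5-fold lower and a median of -0.48. Il17a, its defining cytokine, had 82 UMIs in 9 anti-PD-1 cells and 275 in 15 isotype cells, or -1.91 (-2.28 to -1.55). Rora, a nuclear receptor of Th17 and tissue T cells, had 397 and 524 UMIs, or -0.56 (-0.75 to -0.37), and Ahr, a receptor for aromatic ligands, 65 and 104, or -0.84 (-1.31 to -0.38). Within each library the Il17a cells stood apart from the Ifng cells. Of the Il17a cells, 1 of 9 under anti-PD-1 and 1 of 15 under isotype had Ifng, against 90 of 140 and 98 of 150 cells without Il17a. Tmem176b was found in 8 of 9 and 13 of 15 Il17a cells, against 27 of 140 and 19 of 150 others. The Il17a cells with both receptor segments named, 5 under anti-PD-1 and 6 under isotype, each had a different pair within their library.

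Helper ligands were lower and some receptors higher. In the costimulation and help list, 4 of 13 genes were higher, 2 at least 1.5-fold higher and 4 at least 1.5-fold lower, with a median of -0.23. Cd40lg had a ratio of -0.73 (-1.09 to -0.37) with UMIs in 57 of 149 anti-PD-1 members and 85 of 165 isotype members. Tnfsf11, which encodes RANKL, had 320 and 455 UMIs, or -0.67 (-0.88 to -0.46), and Tnfsf8, the ligand of CD30, 93 and 134, or -0.69 (-1.09 to -0.30). Among the receptors, Cd27 had 149 UMIs in 64 anti-PD-1 cells and 45 in 29 isotype cells, or 1.57 (1.08 to 2.08). Tnfrsf9, the receptor 4-1BB, had 746 and 425 UMIs, or 0.65 (0.48 to 0.83), and Icos 576 and 367, or 0.49 (0.30 to 0.68). Tnfrsf4 had a ratio of -0.28 (-0.42 to -0.13) and Cd28 of -0.16 (-0.39 to 0.06).

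The interferon-gamma and type I interferon lists differed in direction. Of 21 measured interferon-gamma response genes, 19 were higher, 6 at least 1.5-fold higher and 1 at least 1.5-fold lower, with a median of 0.34. The GTPase gene Gbp2 had 126 and 59 UMIs, or 0.93 (0.48 to 1.41), Gbp4 had a ratio of 0.79 (0.23 to 1.36), and Irf1, a factor downstream of the interferon-gamma receptor, 0.53 (0.23 to 0.83). The peptide transporter genes Tap1 and Tap2 of the MHC class I list were at 0.54 (0.28 to 0.79) and 0.63 (0.40 to 0.86), while H2-K1 was at 0.07 and B2m at -0.03. Of 22 measured type I interferon genes, 8 were higher, 1 at least 1.5-fold higher and 4 at least 1.5-fold lower, with a median of -0.10. Among those lower, Isg15, a ubiquitin-like modifier, had 1311 and 1952 UMIs, or -0.73 (-0.84 to -0.63), and Ifi27l2a 1036 and 1679, or -0.86 (-0.97 to -0.74). Ifit1 had 945 and 946 UMIs, or -0.16, and Irf7 was higher at 0.52 (0.12 to 0.92).

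The remaining lists ranged from Th2 genes, with 2 of 6 higher and a median of -0.33, to proliferation genes, with 11 of 13 higher, 5 at least 1.5-fold higher, 1 at least 1.5-fold lower and a median of 0.37. Cells with both Mki67 and Top2a had been left out of the members by the rule. The T cell receptor and signalling list had 13 of 20 genes higher and a median of 0.10, with the adaptor Trat1 at 12 and 40 UMIs, or -1.90 (-2.96 to -0.94). Activation genes had a median of 0.04, which became -0.04 under TMM and -0.03 under DESeq2 scaling, with Rgs16, a regulator of G protein signalling, at 0.80 (0.59 to 1.02) and Nr4a1 at 0.03. Naive and central memory genes had a median of -0.09, with Tcf7 at 61 and 95 UMIs, or -0.80 (-1.29 to -0.32). Chemokine receptors had a median of -0.12 and tissue residency genes of -0.13, with Cxcr6 at -0.22 (-0.41 to -0.04). Follicular helper genes had a median of -0.04, glycolysis genes 0.13, survival genes -0.15, common gamma-chain genes 0.00 and effector and migration genes 0.15.

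Genes of the other helper programs were mostly close between the antibodies. Gata3, the Th2 factor, had 109 UMIs in anti-PD-1 members and 121 in isotype members, or -0.31 (-0.70 to 0.07), and Areg 203 and 141, or 0.37 (0.05 to 0.69), in 31 and 21 cells. Among follicular helper genes, Bcl6, the factor that directs this program, had 18 and 38 UMIs, or -1.24 (-2.14 to -0.39), while the cytokine Il21 had 37 and 30, or 0.14 (-0.59 to 0.89). Maf was present in 90 and 87 cells at -0.04 (-0.34 to 0.25). Of the receptors that guide migration, Ccr2 was at 0.15 (-0.27 to 0.58), Cxcr3 at 0.11 (-0.30 to 0.52) and Gpr183, a receptor for oxysterols, at -0.34 (-0.62 to -0.06).

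Effector and migration genes had 9 of 14 higher, 1 at least 1.5-fold higher and 0 at least 1.5-fold lower, shares near those of all genes. Among them Vim, which encodes vimentin, had 2749 and 1966 UMIs, or 0.32 (0.24 to 0.41), Anxa2 1512 and 992, or 0.45 (0.33 to 0.56), and the integrin chain Itga4 376 and 248, or 0.44 (0.20 to 0.68). In the glycolysis and hypoxia list, Bnip3, a mitophagy gene induced by hypoxia, had 133 and 59 UMIs, or 1.01 (0.56 to 1.48), and Pkm, a pyruvate kinase, was at 0.29 (0.20 to 0.38), while the glucose transporter Slc2a1 had 107 UMIs in each library. Survival genes had 7 of 9 lower and 1 at least 1.5-fold lower, with the stress-induced Gadd45b at 507 and 623 UMIs, or -0.46 (-0.63 to -0.29). Bcl2a1d had 348 and 488 UMIs, or -0.65 (-0.85 to -0.45), and Bcl2a1b 957 and 1062, or -0.31, 2 near-identical genes whose reads counting could split. Rbpj, a factor of Notch signalling, was at -0.59 (-0.87 to -0.31), while Rgs1 was at -0.13 (-0.25 to -0.02) and Prdm1, which encodes BLIMP-1, at -0.06 (-0.44 to 0.31).

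**Figure D3:**
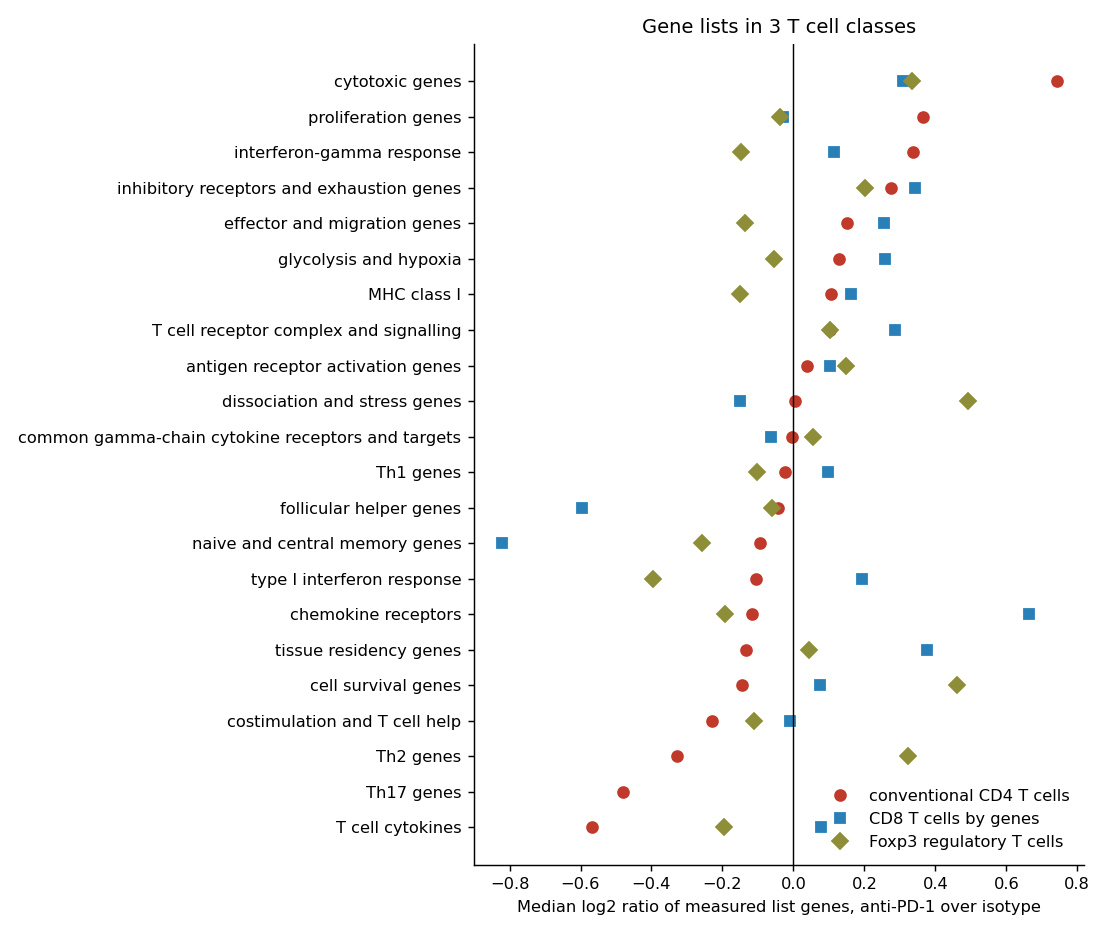
Median log2 ratio, anti-PD-1 over isotype, of the measured genes of 22 lists in conventional CD4 T cells (red circles), CD8 T cells (blue squares) and Foxp3 regulatory T cells (olive diamonds). Cytotoxic genes lie highest in CD4 T cells at 0.74 and T cell cytokines lowest at -0.57. No point is drawn where fewer than 3 genes of a list were measured.

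A rule on size and counting error named 12 genes in each direction. The higher ones were Serpine2, Gzmk, Oxsr1, Cd27, Chchd10, Nkg7, Adssl1, Lag3, Lgals3, Vegfa, Il10ra and Cybb. Serpine2, a secreted inhibitor of serine proteases encoded at chr1:79794197-79861180, had 259 UMIs in 25 anti-PD-1 cells and 34 in 5 isotype cells, or 2.77 (2.25 to 3.33), with 23 of the 34 in 1 cell and a ratio of 4.17 without the cell of each library that held most. Oxsr1, a kinase of ion transport control, had 90 UMIs in 42 cells and 19 in 18 cells, or 2.08 (1.36 to 2.88), and 1.32 without the pair cells. Lgals3, which encodes the lectin galectin-3, had 746 and 332 UMIs, or 1.01 (0.82 to 1.20), and Il10ra, a chain of the IL-10 receptor, 203 and 83, or 1.13 (0.75 to 1.52). Chchd10, a mitochondrial protein gene, was at 1.42 (0.93 to 1.94). Cybb, the phagocyte oxidase subunit, had 51 and 15 UMIs and a ratio of 1.60 that was 0.86 without members of at least 20 myeloid marker UMIs, and Adssl1, of purine synthesis, had 1.87 with them and 1.23 without.

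The lower ones were Lta, Tnfsf4, Klk1b9, Bace2, Trat1, Ecm1, Camk2n1, Ccl1, Map3k8, Ifi27l2a, Shoc2 and Tent5a. Tnfsf4, the ligand of OX40, had 32 UMIs in 19 anti-PD-1 cells and 96 in 27 isotype cells, or -1.75 (-2.37 to -1.15). Ccl1, the chemokine that binds Ccr8, had 174 and 344 UMIs in 26 and 32 cells, or -1.14 (-1.42 to -0.88), and -0.52 when each cell was weighted alike. Ccr8 itself had 138 and 172 UMIs, or -0.48 (-0.81 to -0.15). Map3k8, a kinase upstream of ERK, had 100 and 202 UMIs, or -1.18 (-1.54 to -0.82), and Camk2n1, an inhibitor of the calcium-dependent kinase CaMKII, 96 and 205, or -1.26 (-1.62 to -0.90). Klk1b9, with 16 and 54 UMIs, is one of a family of similar kallikrein genes among which counts may be split.

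Shares of cells showed which differences lay in the number of cells with a gene. Each cell was thinned to 2000 UMIs, which kept 145 of 149 anti-PD-1 and 164 of 165 isotype members. Nkg7 was then found in 66.9% of anti-PD-1 members (58.6 to 74.5) and 49.4% of isotype members (41.5 to 57.3), a difference of 17.5 percentage points (6.48 to 27.9). Pdcd1 was found in 51.7% and 40.2%, or 11.5 points (0.36 to 22.2), Gzmb in 22.1% and 12.2%, or 9.87 points (1.48 to 18.4), and Gzmk in 15.9% and 7.32%, or 8.54 points (1.41 to 16.0). Among the 125 thinned anti-PD-1 members without the Trbv13-1 and Trav4-3 pair, shares were 61.6% for Nkg7, 46.4% for Pdcd1, 22.4% for Gzmb and 12% for Gzmk. Their differences from isotype were not computed. B cells thinned alike had 0 cells with these genes among 50 and 47, which allows up to 6.00% and 6.38% at a floor of 3 counts and 7.11% and 7.55% by the exact interval. Before thinning, the median depth of B cells was 4403 and 3640 UMIs.

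Rora lay lower, in 41.4% and 55.5% of members, or -14.1 points (-24.8 to -2.94). Intervals that include 0 were found for Lag3 with 33.8% and 25%, Cd40lg with 15.9% and 21.3%, Tnfrsf4 with 49.0% and 59.8%, Ifng with 44.8% and 39.6%, Ctla4 with 51.7% and 52.4%, and Il17a with 5.52% and 9.15%. Gbp2 was found in 17.9% and 8.54% of members, but also in 26.2% and 16.2% of Lyz2-high myeloid cells, whose median depth was 8474 and 9120 UMIs. Without thinning, Pdcd1 was found in 103 of 149 anti-PD-1 and 96 of 165 isotype members and Nkg7 in 108 and 102.

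**Figure D4:**
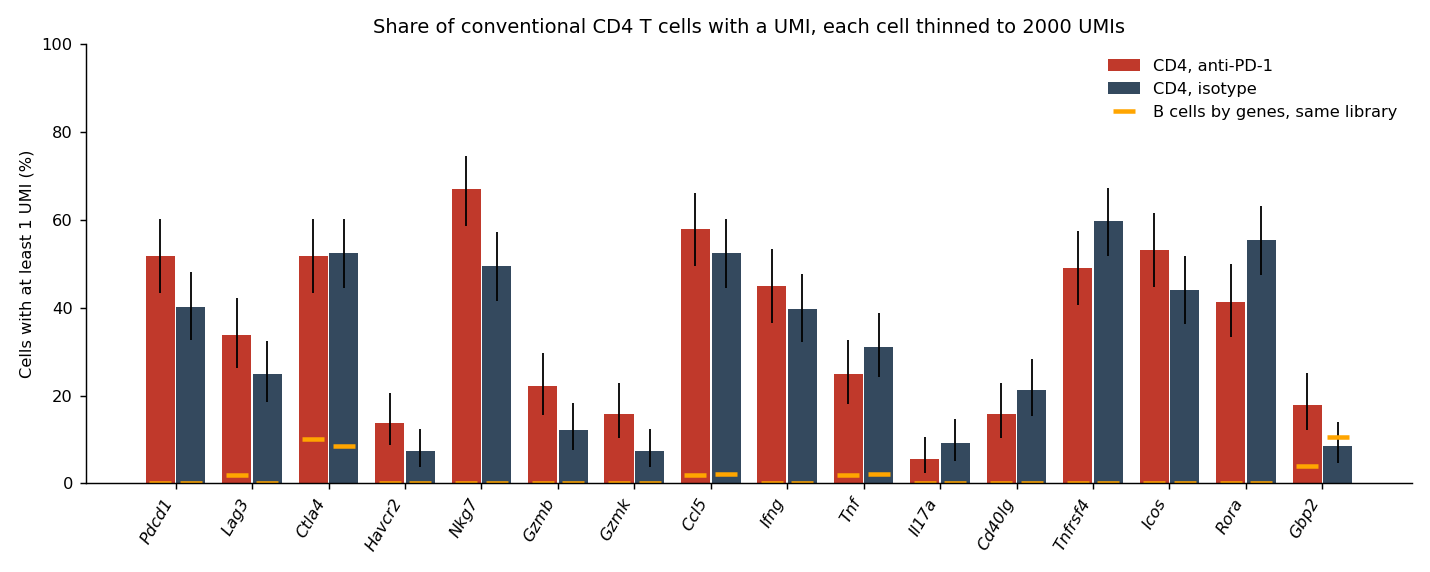
Percentage of conventional CD4 T cells with at least 1 UMI of 16 genes after thinning to 2000 UMIs, anti-PD-1 (red) left of isotype (dark), with exact 95% intervals; orange dashes mark B cells of the same library. Nkg7 and Rora show the widest gaps, at 66.9% and 49.4% and at 41.4% and 55.5%.

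Compared with CD8 T cells of the same library, helper genes were higher in members and genes of killer cells such as Gzmb lower, and compared with Foxp3 regulatory T cells, Ifng and helper ligands were higher. Median depth was 7424 and 7339 UMIs in CD8 and 5770.5 and 6042 UMIs in regulatory T cells. Between CD4 and CD8 T cells, 215 of 6692 genes measured in both libraries were at least 2-fold higher in CD4 in both, and 68 at least 2-fold lower. For a single library and a 1.5-fold limit, 16.9% of genes were higher and 9.03% lower in CD4 under anti-PD-1, and 20.9% and 10.5% under isotype. Ccr8, a chemokine receptor of tumour and skin T cells, had 138 UMIs in CD4 and 2 in CD8 under anti-PD-1, and 172 and 4 under isotype, log2 ratios of 5.83 and 4.13. Igfbp7, a secreted binding protein, was at 3.96 and 3.72 and Maf, a factor of cytokine genes in helper cells, at 3.24 and 3.47. Lower in CD4 were Ly6c2, a surface protein of effector CD8 cells, at -4.67 and -4.53, Cd7, a surface protein of T and NK cells, at -3.55 and -3.54, Cd160, a receptor of cytotoxic cells, at -3.09 and -2.85, the activating receptor Klrk1 at -2.08 and -3.30, and Gzmb at -2.51 and -1.86.

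Against Foxp3 regulatory T cells, 166 of 6387 genes were at least 2-fold higher in CD4 members in both libraries and 159 at least 2-fold lower. With the 1.5-fold limit, 17.9% of genes were higher and 15.6% lower under anti-PD-1, and 19.1% and 15.5% under isotype. Ifng had 989 UMIs in members and 16 in regulatory cells under anti-PD-1, and 938 and 38 under isotype, log2 ratios of 4.28 and 2.79. Tnfsf11 was at 3.48 and 4.99 and Tff1, a trefoil peptide gene, at 2.38 and 3.68. Tnfsf8 was at 4.87 and 3.64, the second with 0 UMIs in isotype regulatory cells set to 3 counts and an interval from 3.32. Lower in members were the integrin gene Itgae at -6.37 and -6.16, Lrrc32, which presents latent TGF-beta, at -5.72 and -4.34, Ikzf2 at -3.02 and -2.96, and Areg, a growth factor for tissue repair, at -2.81 and -2.71. The rule removed Foxp3 cells, so the low regulatory genes follow in part from it.

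**Figure D5:**
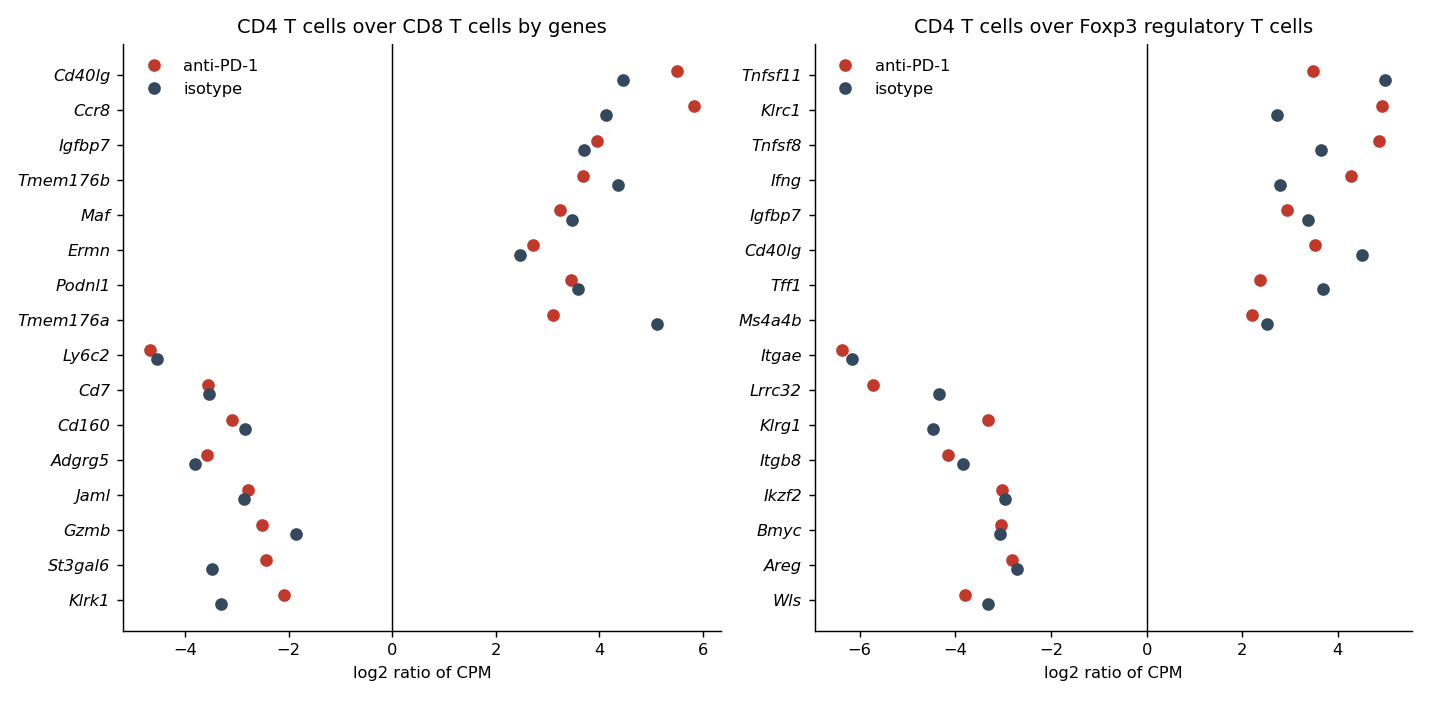
Log2 ratio of CPM in conventional CD4 T cells over CD8 T cells (left) and over Foxp3 regulatory T cells (right) for the 16 genes named in each, in the anti-PD-1 (red) and isotype (dark) libraries. All of these genes lie on the same side of 0 in both libraries, and a gene with 0 UMIs on 1 side is set against 3 counts.

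The same contrast of antibodies was read in the other classes, whose values are given side by side since the difference between classes was not tested. Of measured genes, 60.1% were higher in CD8 T cells, 17.4% at least 1.5-fold higher and 8.19% at least 1.5-fold lower, and 56% were higher in regulatory T cells, with 15.9% and 9.18% past 1.5-fold. Cytotoxic genes had medians of 0.74 in CD4, 0.31 in CD8 and 0.33 in regulatory T cells, T cell cytokines of -0.57, 0.08 and -0.19, and the interferon-gamma response of 0.34, 0.11 and -0.15. Pdcd1 was at 0.76 (0.57 to 0.95) in CD4, 0.56 (0.28 to 0.84) in CD8 and 1.26 (0.79 to 1.75) in regulatory T cells. Lag3 was at 1.07 (0.84 to 1.31), 0.43 (0.05 to 0.82) and -0.13 (-0.52 to 0.26). Cd27 was at 1.57 (1.08 to 2.08), -0.27 (-0.68 to 0.15) and 0.85 (0.34 to 1.38). Ccl3 was at 1.75, 1.81 and 1.35 in the 3 classes, and Isg15 at -0.73, -0.66 and -0.62.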

How the data were processed

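Live CD45-positive tumour cells were sequenced as 1 library per antibody; the labels' protocols give 10x Genomics 3′ v2 chemistry. The deposited matrices hold raw UMI counts of 32285 features per barcode. Per the file headers these counts came from Cell Ranger 5.0.1, but version 2.1.1 and mm10 stand in the submitters' processing notes. Dense copies of the counts were not used. Counts were summed over members per library and scaled to CPM, and genes with at least 20 UMIs were measured. Ratio intervals are exact conditional binomial, share intervals Clopper-Pearson and share differences Newcombe. A gene at 0 in 1 group was set against 3 counts over the group. Doublets were kept, and leaving out scrublet (scanpy 1.11.5) scores above 0.25 was an alternative. TMM (edgeR 4.0.16) and DESeq2 1.42.0 gave other scalings only. Python 3.11.15, numpy 2.4.6, pandas 2.3.3 and scipy 1.17.1 were used. Ratio intervals were checked on simulated counts drawn independently for each gene, so the check does not cover UMIs that cluster in single cells. The 24 named genes are the 12 highest and 12 lowest by the interval bound nearest to 0, with at least 50 UMIs, at least 20 CPM and at most 25% of UMIs in 1 cell, leaving out markers of other cell types, receptor segments and unnamed models. Genes of the lists were also named. Members, lists and rules were chosen with earlier results of these data known. Segment sequences were read from GENCODE vM21, in which all 363 looked-up identifiers were found. Some genes of the lists are not reported here by name.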

Additional observations from a re-analysis of the deposited data

Results flagged for a closer look

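In 3 genes the antibodies' ratios of conventional CD4 T cells and of another T cell class had opposite signs with intervals on either side of 0. These differences between classes were not tested. For Ccl1 the log2 ratio was -1.14 in CD4 T cells and 1.28 (0.38 to 2.30) in CD8 T cells, where it had 66 and 12 UMIs, a difference of -2.42. For Gzmb it was 0.80 in CD4 T cells and -1.04 (-1.23 to -0.85) in Foxp3 regulatory T cells, with 365 and 598 UMIs there, a difference of 1.84. For Ifit2, an interferon-induced gene, it was 0.66 (0.15 to 1.18) in CD4 T cells and -2.30 (-3.02 to -1.62) in Foxp3 regulatory T cells, with 23 and 90 UMIs there, a difference of 2.95.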

How the results depend on the processing

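Counting error is the only error covered, since each group is 1 library, with 149 and 165 members. No paired analysis was possible because each group is 1 library. Over the alternatives, 191 values that answer a comparison kept their direction and size and 7 moved. Among the 18 and 14 members with at least 2 of 4 genes of naive cells, 545 genes were at least 1.5-fold higher and 258 lower, and the type I interferon median was 0.74. With each cell thinned to 2000 UMIs, 599 genes were at least 1.5-fold higher, 98 at least 2-fold higher in CD4 than in CD8 and 73 than in regulatory T cells, from fewer genes measured. With the rule applied after thinning, 13 lists in place of 8 lay above the median of all genes, and Ahr was at 0.29, Il10 at -0.55 and Tcf7 at 0.26. The cause was not tested. Among the members with at least 2 naive genes the sign turned for Ahr (0.18), Ccl3 (-1.41), Cd40lg (0.95), Chchd10 (-0.87), Csf1 (-0.30), Ifi27l2a (0.20), Il10 (-1.45), Isg15 (0.93), Lag3 (-0.37), Serpine2 (-0.13), Tigit (-0.026), Tnf (0.28), Tnfrsf9 (-1.36), Tnfsf4 (0.28), Tnfsf8 (0.20) and the glycolysis median (-0.20). Among those with fewer than 2, Csf2 was at 0.36 and Gzma at -2.39. Csf2 was at 0.15 without scrublet scores above 0.25 and at 0.18 without myeloid-marker members. The omission of myeloid-marker members and of the Trbv13-1 and Trav4-3 members was chosen after seeing the data. Of the other values, 1341 stayed, 127 moved and 23 turned.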
